A study of Mus musculus with 6 samples.

Results

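The genes described here were the liver X receptors (LXR) and genes of cellular lipid efflux in kidney cells of a mouse model of autosomal dominant polycystic kidney disease (ADPKD). The 10 members were taken by gene symbol from the 55367 symbols of each library, namely *Nr1h3*, *Nr1h2*, *Abca1*, *Abcg1*, *Apoe*, *Pltp*, *Mylip*, *Lpcat3*, *Npc1* and *Npc2*. All 10 were present in every library and passed the filter on low values, for which 2 or more libraries had to reach 1 FPKM. FPKM is the number of fragments of a gene divided by its length and by the total of the library.

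RNA of DBA-positive kidney tubular epithelial cells was sequenced at Day115 from 3 groups with 2 libraries each. The WT group had the genotype WT and received saline. The ADPKD group had the genotype Pkd1-/- and received saline, and the ADPKD+MMPP group had the same genotype and received mmpp. MMPP are PEG-coated, manganese-chelated nanoparticles that resemble melanin and scavenge reactive oxygen species, and were injected into a vein. The methods describe male Pkd1 fl/fl;Cre/Esr1+ mice, in which tamoxifen activates a Cre recombinase that deletes *Pkd1* and is not limited to kidney tubules. Which of these alleles and agents the WT mice shared is not given in the labels. DBA, a lectin from plants, attaches to collecting duct cells, and the cells were pulled from digested kidneys with beads, so other cells may be carried along. The labels do not say whether the libraries of a group came from separate mice, and the p-values then measure only the spread between these libraries.

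LXR are nuclear receptors that bind oxysterols, the oxidised derivatives of cholesterol, and that sit on DNA as partners of the retinoid X receptors. When a cell holds more sterol than it needs, active LXR raise the transcription of genes that move cholesterol and phospholipid out of the cell and that limit its uptake. Loaded macrophages are the textbook site of this programme. *Abca1* and *Abcg1* encode the transporters that pass lipid to lipoproteins, *Apoe* and *Pltp* encode secreted carriers, *Mylip* encodes a ubiquitin ligase that removes lipoprotein receptors, *Lpcat3* encodes an enzyme that places polyunsaturated fatty acids into phospholipids, and the products of *Npc1* and *Npc2* hand cholesterol out of the lysosome.

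The depth of the libraries lay between 30.6 and 33.1 M reads in WT and ADPKD and was 11.8 and 10.9 M reads in ADPKD+MMPP, as recovered from FPKM and exon length. Of the read numbers up to 50 in a library, between 37.4% and 39.1% were odd in WT and ADPKD, and 8.78% and 8.29% were odd in ADPKD+MMPP. *Pkd1*, the deleted gene, had 17.7 and 17.2 FPKM in WT, 7.64 and 8.91 in ADPKD, and 4.34 and 3.99 in ADPKD+MMPP. The libraries labelled Pkd1-/- thus held less *Pkd1* RNA than WT and were not free of it. *Aqp2*, the water channel of collecting duct principal cells, was between 677 and 3555 FPKM in all 6 libraries, while *Avpr2*, the vasopressin receptor of these cells, was at or near 0 in all of them. Markers of proximal tubule summed to between 22678 and 23828 FPKM in ADPKD+MMPP against between 604 and 800 in WT and between 1478 and 2050 in ADPKD. Most of the sum in ADPKD+MMPP was *Kap*, at 12822 and 12116 FPKM, and *Gpx3*, at 8789 and 8321 FPKM. In ADPKD+MMPP against ADPKD, 10 of these 14 markers were higher past the test described below and 1, *Hnf4a*, was lower. Over all tested genes, 27.9% were higher and 43.0% lower in this comparison. The median log2 fold change of the 14862 tested genes was 0.03 in ADPKD against WT and -0.36 in ADPKD+MMPP against ADPKD. The ADPKD+MMPP libraries differ from the others both in treatment and in how their read numbers are made up, and these cannot be told apart.

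Promoters of 8 of the 10 members were used from the RefSeq promoter table of GRCm38.p6, as 11 windows that run from 250 bases before to 50 bases after a start of transcription. No window of *Abcg1* or *Npc1* was used, so the counts for members leave these genes out. LXR with their partner bind a repeat named DR4, which is 2 copies of AGGTCA with 4 bases of any kind between them, and CREB, a factor that the study examined, binds the cAMP response element TGACGTCA or its short form TGACG. Both strands were searched. With at most 3 mismatches among the 12 fixed letters, a DR4 was found in 1 of the 11 windows, that of *Abca1*, and such a match was present in 21.9% of all 32851 promoters. The whole cAMP response element was in 0 of the 11 windows and in 1.79% of all promoters. The short form was in 1 of the 11, that of *Nr1h2*, and in 20.8% of all promoters. The study names *Abcg1* as a CREB target and reports less phosphorylated CREB bound to it in MMPP-treated ADPKD mice. Its CREB targets carry the element in promoters or enhancers, and enhancers were not searched here. Windows of 3 members are shown, the pair with the largest rise in ADPKD and that of the member with the short form, with the matched letters in capitals where there are any. The *Abca1* window lies at chr4:53159846-53160145, the *Apoe* window at chr7:19699139-19699438 and the *Nr1h2* window at chr7:44553916-44554215, all on the minus strand.
Abca1: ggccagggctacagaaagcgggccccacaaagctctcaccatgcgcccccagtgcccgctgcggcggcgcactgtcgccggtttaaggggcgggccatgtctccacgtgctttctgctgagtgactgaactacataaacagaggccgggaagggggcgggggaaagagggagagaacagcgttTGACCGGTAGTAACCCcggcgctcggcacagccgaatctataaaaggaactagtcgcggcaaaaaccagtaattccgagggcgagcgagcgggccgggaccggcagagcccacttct
Apoe: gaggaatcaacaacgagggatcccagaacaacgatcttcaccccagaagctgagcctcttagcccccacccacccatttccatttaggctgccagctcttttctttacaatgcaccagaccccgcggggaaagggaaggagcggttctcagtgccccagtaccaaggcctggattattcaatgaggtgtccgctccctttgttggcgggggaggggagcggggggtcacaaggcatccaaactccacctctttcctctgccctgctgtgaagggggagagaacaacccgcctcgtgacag
Nr1h2: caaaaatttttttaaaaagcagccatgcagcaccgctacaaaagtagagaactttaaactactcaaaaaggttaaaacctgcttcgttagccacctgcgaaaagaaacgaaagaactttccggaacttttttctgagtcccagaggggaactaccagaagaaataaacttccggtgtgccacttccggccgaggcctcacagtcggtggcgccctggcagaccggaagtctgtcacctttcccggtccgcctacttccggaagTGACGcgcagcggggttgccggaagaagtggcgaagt
The capitals in *Abca1* are the DR4 match, read on the strand opposite to the gene, and start 67 bases before the start of transcription. In the *Apoe* window neither motif was found at these limits, and the capitals in *Nr1h2* are the short form. These letters describe the windows and show no binding.

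In ADPKD against WT, the transporters and *Apoe* were higher and the other secreted carrier, *Pltp*, was lower. Of the 10 members, 6 passed the test at a fold change of at least 1.5 and an unadjusted P under 0.05, with 4 higher and 2 lower, where 26.8% of all tested genes passed, 14.2% higher and 12.5% lower. The members that passed upwards were *Abca1*, *Apoe*, *Abcg1* and *Npc2*, and those that passed downwards were *Pltp* and *Mylip*. The median log2 fold change of the 10 members was 0.46, against 0.03 over all tested genes. Fold changes are on the scale of log2(FPKM + 1), on which changes of genes with low FPKM come out smaller than on FPKM itself.

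**Figure D1:**
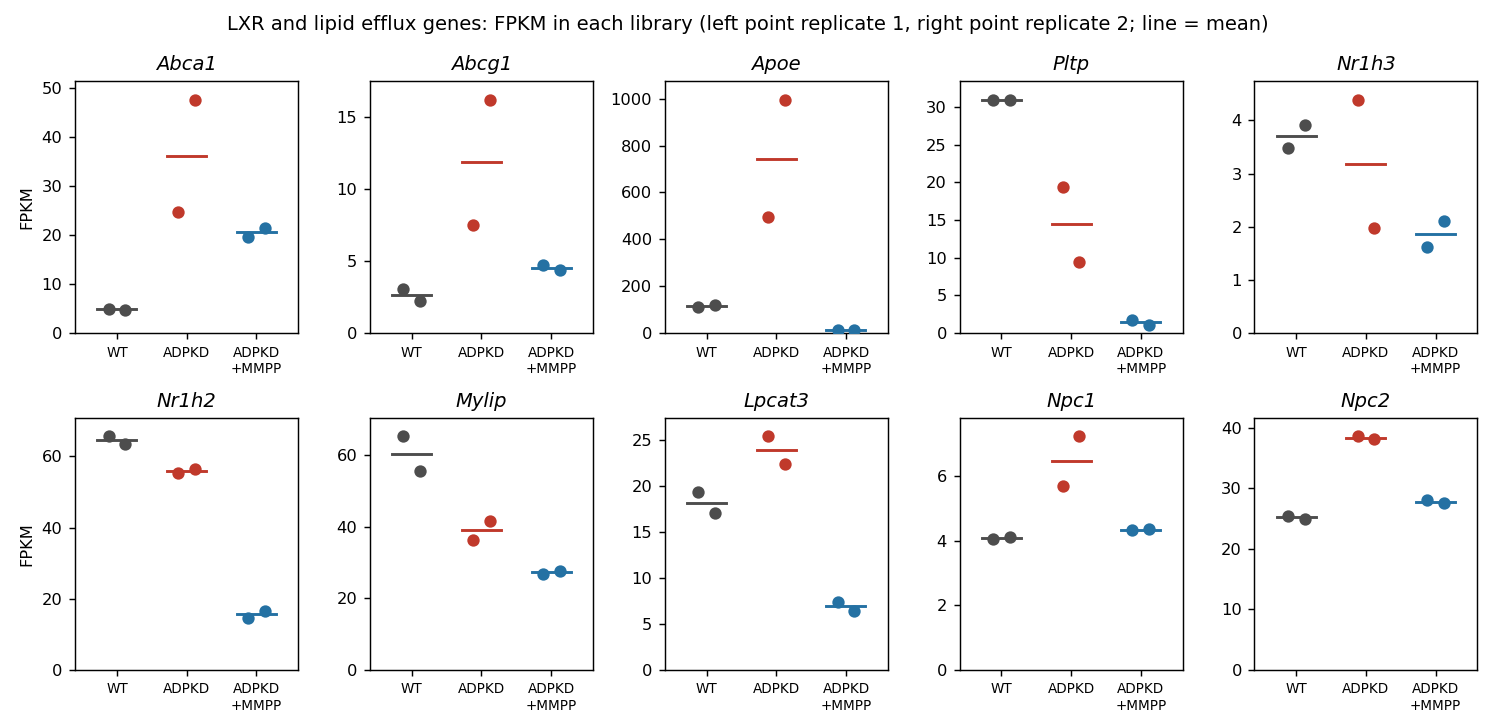
FPKM of each member (vertical axis, a scale of its own in each panel, from 0) in the 2 libraries of WT, ADPKD and ADPKD+MMPP, with a point per library and a line at the group mean. The ADPKD libraries lie above the WT libraries for *Abca1*, *Abcg1* and *Apoe*, with replicate 2 about as far above replicate 1 in each, and *Apoe* falls to 11.6 and 11.8 FPKM in ADPKD+MMPP.

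*Abca1*, the transporter that loads cholesterol and phospholipid onto lipid-poor apolipoproteins, rose in ADPKD. It lies on chromosome 4 of GRCm38 from 53030787 to 53159895, on the minus strand. Its level was 4.98 and 4.75 FPKM in WT, 24.7 and 47.6 FPKM in ADPKD, and 19.6 and 21.4 FPKM in ADPKD+MMPP. All libraries of Pkd1-/- mice were above both WT libraries, and both ADPKD libraries were above both ADPKD+MMPP libraries, the nearest by 24.7 against 21.4 FPKM. Its change against WT on the log2 scale was 2.59 in ADPKD (SE 0.29, adjusted p = 0.00412), and 1.09% of the tested genes changed by at least as much in either direction. In ADPKD+MMPP against ADPKD it was -0.72 (SE 0.29, adjusted p = 0.0626), which passed the test at the unadjusted P by a narrow margin and did not pass in 12 of the 19 alternatives. Among these were the fits without ADPKD replicate 2, where it was -0.26, without ADPKD+MMPP replicate 1 (-0.66) or 2 (-0.78), and without either WT library (-0.72), and those with a pseudocount of 0.1, no filter, no trend, the 2 groups alone or voom weights (-0.72 to -0.74). Against WT, *Abca1* stayed higher in ADPKD+MMPP by 1.87 (SE 0.29, adjusted p = 0.00148).

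*Abcg1*, which passes cholesterol to mature lipoprotein particles, followed the same order of groups at lower levels. It spans 31057675 to 31117988 of chromosome 17 on the plus strand. The libraries had 3.09 and 2.24 FPKM in WT, 7.52 and 16.2 FPKM in ADPKD, and 4.71 and 4.396 FPKM in ADPKD+MMPP. The groups did not overlap, and ADPKD replicate 2 was 2.16 times replicate 1. *Abcg1* rose by 1.73 on the log2 scale in ADPKD against WT (SE 0.33, adjusted p = 0.0158) and was lower in ADPKD+MMPP against ADPKD, with -1.13 (SE 0.33, adjusted p = 0.0225). Quantile normalization brought the second difference to -0.67, which did not pass, and it did not pass without ADPKD+MMPP replicate 1 (-1.17) or 2 (-1.08). Without ADPKD replicate 2 it was -0.62 and passed. For ADPKD+MMPP against WT the value was 0.61 (SE 0.33, adjusted p = 0.139) and did not pass. It passed in 4 of the 19 alternatives, at 1.15 with quantile normalization and at 0.61 in the fit of the 2 groups alone and in the fits without either ADPKD library, and it turned to -0.22 when libraries were centred by transcript structure as described below.

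*Apoe*, the apolipoprotein through which cells export and take up lipid, had the highest FPKM of the members in WT and ADPKD and the largest change among them in ADPKD+MMPP against ADPKD. The gene is on the minus strand of chromosome 7 between 19696109 and 19699188. Its level was 113 and 119 FPKM in WT, 494 and 996 FPKM in ADPKD, and 11.6 and 11.8 FPKM in ADPKD+MMPP. No library of a group overlapped another group, and the ADPKD+MMPP libraries were below WT as well as below ADPKD. The mean FPKM in ADPKD was 6.44 times that in WT and 63.4 times that in ADPKD+MMPP. On the log2 scale *Apoe* rose by 2.59 in ADPKD against WT (SE 0.31, adjusted p = 0.00474) and fell by 5.78 in ADPKD+MMPP against ADPKD (SE 0.31, adjusted p = 3.44e-05). Only 0.168% of the tested genes changed by at least as much after treatment. In ADPKD+MMPP against WT it was lower by a log2 fold change of -3.19 (SE 0.31, adjusted p = 0.000218). *Apoe* passed in the same direction in all 3 comparisons under each alternative run.

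*Pltp*, whose secreted product moves phospholipid between lipoprotein particles, went the other way in ADPKD. It runs from 164839518 to 164857711 on the minus strand of chromosome 2. WT had 30.9 and 31.0 FPKM, ADPKD had 19.4 and 9.44 FPKM, and ADPKD+MMPP had 1.79 and 1.07 FPKM. The groups fell in steps without overlap, and the ADPKD replicate that was higher for *Abca1*, *Abcg1* and *Apoe* was the lower one for *Pltp*. The fold change in ADPKD against WT, -1.13 on the log2 scale (SE 0.33, adjusted p = 0.0517), passed at the unadjusted P and not after adjustment. It did not pass without either WT library, at the same value, and passed at -1.61 without ADPKD replicate 1 and -0.65 without replicate 2. In ADPKD+MMPP against ADPKD *Pltp* was lower by -2.60 (SE 0.33, adjusted p = 0.000675), and against WT by -3.73 (SE 0.33, adjusted p = 0.000141). Centring by transcript structure, described below, brought the difference from ADPKD to -0.66, which did not pass. The ADPKD+MMPP libraries rested on 54 and 30 reads of this gene. Of its exon bases, 19.3% are shared with *Ctsa* on the opposite strand, and the strandedness of the counting is not given in the sources used here, so reads there could belong to either gene.

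The receptors themselves did not pass the test in ADPKD against WT. *Nr1h3*, which encodes LXR alpha, the form that is abundant in macrophages and liver, had 3.49 and 3.92 FPKM in WT, 4.39 and 1.98 FPKM in ADPKD, and 1.62 and 2.11 FPKM in ADPKD+MMPP. One ADPKD library lay above both WT libraries and the other below them, and the second also lay between the ADPKD+MMPP libraries. Against WT the log2 fold change in ADPKD was -0.23 (SE 0.29, adjusted p = 0.594), and it turned to 0.20 without ADPKD replicate 2 and passed at -0.65 without replicate 1. In ADPKD+MMPP the differences were -0.49 against ADPKD (SE 0.29, adjusted p = 0.167) and -0.72 against WT (SE 0.29, adjusted p = 0.0606). The second passed narrowly at the unadjusted P, at 48 and 58 reads in ADPKD+MMPP, did not pass in 11 of the 19 alternatives, among them each fit without a WT or an ADPKD+MMPP library (-0.59 to -0.84), and turned to 1.25 with centring by transcript structure. The difference from ADPKD turned to 0.16 with quantile normalization and passed at -0.92 without ADPKD replicate 2. Of its exon bases, 1.35% are shared with another gene, *Gm13783*. The gene lies on chromosome 2 from 91184061 to 91202834 on the minus strand.

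*Nr1h2*, which encodes LXR beta, the form present in most cells, was higher per length than *Nr1h3* in every library. It had 65.7 and 63.4 FPKM in WT, 55.3 and 56.5 FPKM in ADPKD, and 14.6 and 16.6 FPKM in ADPKD+MMPP. The replicates lay close together in each group, and WT and ADPKD differed by -0.20 on the log2 scale (SE 0.11, adjusted p = 0.204), which did not pass. In ADPKD+MMPP *Nr1h2* was lower than in ADPKD by -1.78 (SE 0.11, adjusted p = 4.53e-05) and lower than in WT by -1.98 (SE 0.11, adjusted p = 2.69e-05). With centring by transcript structure, described below, the difference from ADPKD was -0.40 and did not pass. The gene is on chromosome 7 from 44549616 to 44553951, minus strand.

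*Mylip*, the ligase also known as IDOL that sends LDL receptors to degradation, and *Lpcat3*, the membrane phospholipid enzyme, are LXR targets that did not rise past the threshold in ADPKD. *Mylip*, at 45389742 to 45412022 of chromosome 13 on the plus strand, had 65.2 and 55.5 FPKM in WT, 36.1 and 41.7 FPKM in ADPKD, and 26.8 and 27.7 FPKM in ADPKD+MMPP. Both ADPKD libraries were below both WT libraries, with a log2 fold change of -0.62 (SE 0.13, adjusted p = 0.0194). This fold is close to the threshold and did not pass without ADPKD replicate 1, where it was -0.52, or without WT replicate 1, where it was -0.51. After MMPP treatment *Mylip* differed from ADPKD by -0.50 (SE 0.13, adjusted p = 0.0134), under the fold threshold, and passed in 3 of the 19 alternatives, with a common FPKM sum (-0.79), with quantile normalization (-0.62) and without ADPKD replicate 1 (-0.60). It differed from WT by -1.11 (SE 0.13, adjusted p = 0.000422), which passed.

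*Lpcat3* had 19.3 and 17.1 FPKM in WT, 25.4 and 22.4 FPKM in ADPKD, and 7.36 and 6.45 FPKM in ADPKD+MMPP. It was somewhat higher in both ADPKD libraries than in WT, by 0.37 on the log2 scale (SE 0.13, adjusted p = 0.0825), which did not pass. In ADPKD+MMPP it was lower than in ADPKD by -1.66 (SE 0.13, adjusted p = 0.000105) and lower than in WT by -1.28 (SE 0.13, adjusted p = 0.000246). With centring by transcript structure the first difference was -0.01 and did not pass, and the second turned to 0.33. It lies on the plus strand of chromosome 6 from 124663027 to 124704418, and 10.2% of its exon bases are shared with *Emg1* on the opposite strand.

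The lysosomal pair had higher FPKM in ADPKD than in the other groups, and only *Npc2* against WT passed the test. *Npc1* encodes the membrane protein of the lysosome that takes up cholesterol from the soluble product of *Npc2*. *Npc1* had 4.04 and 4.11 FPKM in WT, 5.70 and 7.22 FPKM in ADPKD, and 4.33 and 4.35 FPKM in ADPKD+MMPP. *Npc2*, on chromosome 12 from 84754562 to 84773152 on the minus strand, had 25.4 and 24.9 FPKM in WT, 38.6 and 38.1 FPKM in ADPKD, and 28.03 and 27.5 FPKM in ADPKD+MMPP. For both genes the ADPKD libraries stood above the libraries of the other groups. The log2 fold changes in ADPKD against WT lay on either side of the fold threshold, at 0.59 for *Npc2* (SE 0.09, adjusted p = 0.00893), which passed, and at 0.55 for *Npc1* (SE 0.14, adjusted p = 0.0363), which did not. In 7 of the 19 alternatives *Npc2* did not pass, with values from 0.50 to 0.59, among them the fits without ADPKD replicate 1 (0.58) and without WT replicate 2 (0.57). *Npc1* passed in 4 of the 19, at 0.60 to 0.70, with either other pseudocount, with voom weights and without ADPKD replicate 1. In ADPKD+MMPP against ADPKD the values were -0.45 for *Npc2* (SE 0.09, adjusted p = 0.00521) and -0.47 for *Npc1* (SE 0.14, adjusted p = 0.0219), both under the fold threshold. *Npc2* passed at -0.75 with a common FPKM sum, and *Npc1* at -0.73 with a common FPKM sum and at -0.62 without ADPKD replicate 1. With centring by transcript structure, described below, *Npc2* passed at -1.26, while *Npc1* turned to 0.71 and passed as higher. *Npc1* turned to 0.07 with quantile normalization. Of the exon bases of *Npc1*, 5.31% are shared with genes on the opposite strand. Against WT neither passed, at 0.14 and 0.07, and rescaling to a common FPKM sum turned both to -0.25. *Npc1* passed upwards against WT at 0.63 with quantile normalization and at 1.28 with centring by transcript structure.

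**Figure D2:**
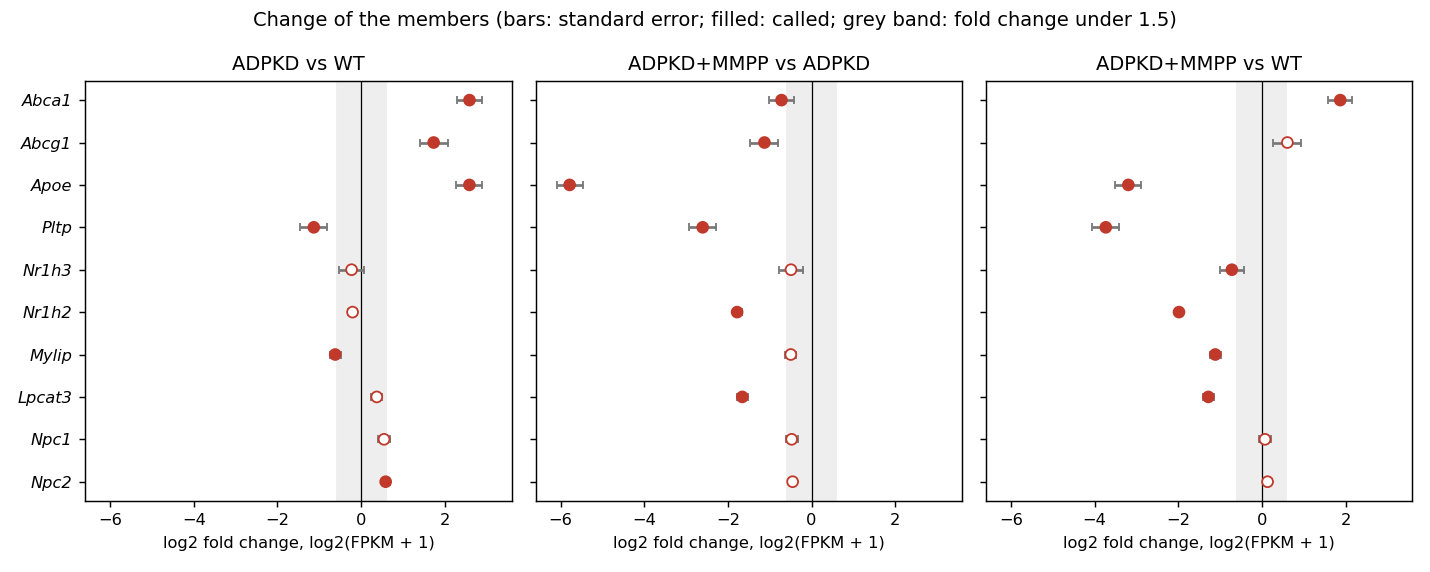
Log2 fold change of each member on the log2(FPKM + 1) scale (horizontal axis) in the 3 comparisons, with bars of 1 standard error; filled points passed the test and the grey band marks fold changes under 1.5. *Abca1*, *Abcg1* and *Apoe* lie to the right in ADPKD against WT, and no member lies to the right of 0 in ADPKD+MMPP against ADPKD.

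In ADPKD+MMPP against ADPKD, 6 of the 10 members passed the test, all of them lower, and 0 were higher. *Apoe* (-5.78), *Pltp* (-2.60), *Nr1h2* (-1.78), *Lpcat3* (-1.66), *Abcg1* (-1.13) and *Abca1* (-0.72) were the 6, on the log2 scale. Of all tested genes 70.9% passed, 27.9% higher and 43.0% lower, so the count of members was no greater than the background. With quantile normalization 53.9% of the genes that passed were higher, against 39.3% with FPKM as deposited. The median of the members was -0.92, against -0.36 over all tested genes. In ADPKD+MMPP against WT, 7 members passed, where 73.9% of all tested genes did, 30.1% higher and 43.8% lower. *Abca1* was the 1 member that was higher, and *Apoe*, *Pltp*, *Nr1h2*, *Nr1h3*, *Mylip* and *Lpcat3* were lower, with *Nr1h3* and *Lpcat3* turning to positive values under centring by transcript structure. These comparisons share libraries with each other, so their values are set side by side and no relation between them is drawn.

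The changes after MMPP treatment were read beside a feature of gene structure, the percentage of its exon bases found in 1 annotated transcript and no other. Over the 12375 tested protein-coding genes in 18 bins of this share, the median log2 fold change in ADPKD+MMPP against ADPKD went from -1.70 in the lowest bin to 1.09 in the highest, and Spearman's rho between share and change was 0.649 across genes, which are not independent replicates. In ADPKD against WT rho was 0.0451. The members span the range of this share. *Pltp* had 9.37% of its exon bases in 1 transcript, *Nr1h3* 11.3%, *Lpcat3* 24.1%, *Nr1h2* 31.3%, *Apoe* 35.6%, *Npc1* 38.9%, *Mylip* 44.8%, *Abcg1* 78.1%, *Npc2* 79.2% and *Abca1* 93.5%. The median gene with a low share was thus lower after treatment, and whether that is a property of the cells or of the values cannot be told apart here.

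Set against the bin of its own share, each member gave another picture. The genes in the bin of *Apoe* had a median of -1.01 after treatment, and *Apoe* was at -5.78. The bin of *Abca1* had a median of 1.09, with 86.7% of its genes higher, and *Abca1* was at -0.72. *Abcg1* and *Npc2* shared a bin with a median of 0.82 and were at -1.13 and -0.45. *Lpcat3*, at -1.66, and *Nr1h2*, at -1.78, were nearer to the medians of their bins, -1.39 and -1.06. When each library was centred within these bins, *Apoe* (-4.60), *Abcg1* (-1.94), *Abca1* (-1.82) and *Npc2* (-1.26) were lower past the test in ADPKD+MMPP against ADPKD. *Nr1h3* (1.45) and *Npc1* (0.71) were then higher past the test. Centring took the same value from all genes of a bin in a library, whatever their level. Changes of genes with low FPKM come out smaller on this scale, and *Nr1h3* was at 1.62 and 2.11 FPKM in ADPKD+MMPP. *Pltp* (-0.66), *Nr1h2* (-0.40), *Lpcat3* (-0.01) and *Mylip* (0.39) did not pass. Against WT the centred value of *Abca1* was 0.62, which did not pass, and that of *Apoe* was -1.99, which did. In ADPKD against WT centring moved no member's log2 fold change by much, with 2.45 for *Abca1*, 1.72 for *Abcg1* and 2.61 for *Apoe*, and *Npc2*, at 0.57, no longer passed.

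**Figure D3:**
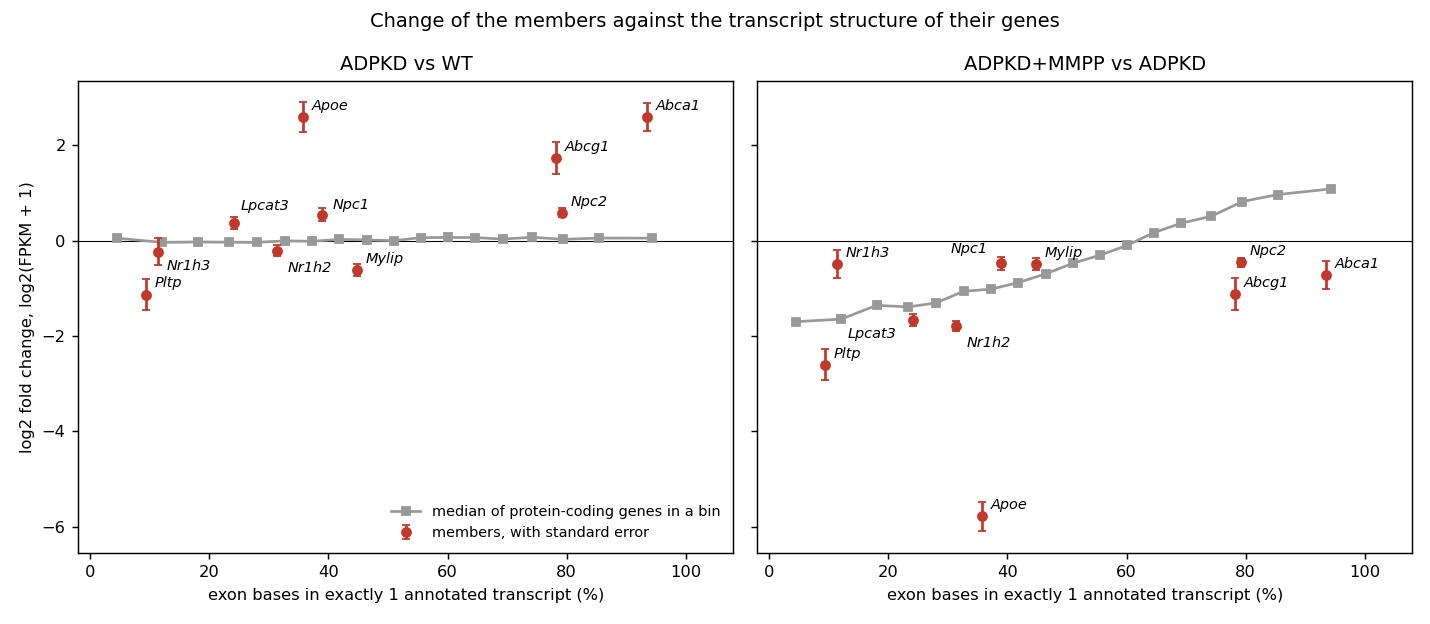
Log2 fold change on the log2(FPKM + 1) scale (vertical axis) against the percentage of exon bases in exactly 1 annotated transcript (horizontal axis), for ADPKD against WT on the left and ADPKD+MMPP against ADPKD on the right. Grey squares are medians of protein-coding genes in 18 bins, and red points are the members with 1 standard error. On the right the grey line climbs from -1.70 to 1.09, and *Apoe*, *Abcg1*, *Abca1* and *Npc2* lie furthest below it.

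Cell type markers also differed between the groups. The macrophage sum rose with *Abca1*, *Abcg1* and *Apoe* in ADPKD against WT. In ADPKD+MMPP the sum was higher still, while these genes were lower than in ADPKD. The rise in ADPKD was not particular to the macrophage list. Fibroblast and pericyte markers summed to between 152 and 179 FPKM in WT, between 217 and 237 in ADPKD, and between 305 and 308 in ADPKD+MMPP. Of the 9 tested markers of that list, 5 were higher and 1 lower in ADPKD against WT. The proximal tubule sum given above was also higher in ADPKD than in WT. Macrophages express *Abca1*, *Abcg1* and *Apoe* at high levels, and the 16 macrophage markers summed to between 121 and 138 FPKM in WT, between 673 and 876 FPKM in ADPKD and between 1375 and 1427 FPKM in ADPKD+MMPP. In ADPKD against WT, 14 of the 15 tested macrophage markers were higher and 1, *Mrc1*, was lower. Over all tested genes, 14.2% were higher and 12.5% lower in this comparison. *C1qa*, a complement gene of tissue macrophages, had 14.3 and 11.6 FPKM in WT, 115.2 and 141 FPKM in ADPKD, and 241 and 271 FPKM in ADPKD+MMPP. *Lyz2*, the lysozyme of myeloid cells, had 7.63 and 8.69 FPKM in WT, 188 and 224 FPKM in ADPKD, and 568 and 565 FPKM in ADPKD+MMPP. *C1qa* and *Lyz2* were thus highest in the group in which *Apoe* was lowest. *Csf1r*, a growth factor receptor that defines macrophages, had 5.002 and 8.04 FPKM in WT, 17.0 and 25.6 FPKM in ADPKD, and 0.381 and 0.190 FPKM in ADPKD+MMPP. After treatment 5 of the 15 markers were higher and 8 lower, where 27.9% of all tested genes were higher and 43.0% lower. The higher markers, with *C1qa* and *Lyz2* among them, had a median of 100% of exon bases in 1 transcript, and the lower ones 23.8%. For *Apoe* this share was 35.6%. *Cd163* and *Itgam* were at 0 in some libraries. Fewer cells of a type and less RNA per cell cannot be told apart in such bulk libraries, and the part of macrophages in the changes of the members was not tested.

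The ADPKD libraries also differed from each other. *Abca1*, *Abcg1* and *Apoe* were 1.92, 2.16 and 2.02 times as high in replicate 2 as in replicate 1, and *Pltp* and *Nr1h3* were 2.06 and 2.21 times as high in replicate 1. In replicate 2, 12 of the 16 macrophage markers were higher than in replicate 1, and all 10 principal cell markers were lower, with a sum of 958 against 2507 FPKM. Of the 10 fibroblast and pericyte markers, 7 were higher in replicate 2 and 3 lower. The rise of *Abca1*, *Abcg1* and *Apoe* passed with either ADPKD library left out, with log2 fold changes of at least 2.13, 1.23 and 2.08. Podocyte markers summed to between 969 and 1328 FPKM in WT and between 130 and 243 FPKM in ADPKD, endothelial markers to between 959 and 1124 and between 635 and 650, and intercalated cell markers to between 362 and 376 and between 37.0 and 96.6. These groups fell in ADPKD, with 6 of 6, 9 of 10 and 10 of 10 markers lower, where 12.5% of all tested genes were lower. Their part in the lower values of *Pltp* and *Mylip* was not tested.

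**Figure D4:**
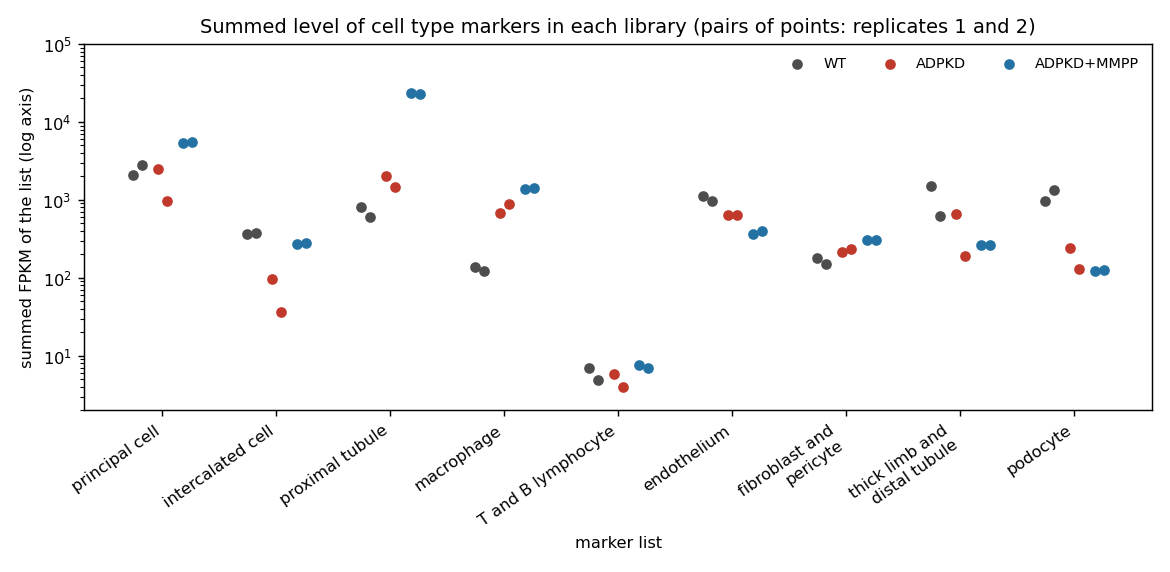
Summed FPKM (vertical axis, log scale) of the markers of 9 cell types in each library, with 2 points per group. The sum of the macrophage list is lowest in WT (121 to 138), higher in ADPKD (673 to 876) and highest in ADPKD+MMPP (1375 to 1427), where 8 of its 15 tested markers were lower than in ADPKD. Proximal tubule markers reach 22678 to 23828 FPKM in ADPKD+MMPP, most of it from *Kap* and *Gpx3*. Of these 14 markers, 10 were higher and 1 lower than in ADPKD. Of all tested genes, 27.9% were higher and 43.0% lower in that comparison.

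Other genes of the pathway were read from 8 lists of 90 genes by role, of which 71 were tested. In ADPKD against WT 16 were higher and 8 lower, which is 33.8% of those tested and not far from the 26.8% of all genes. Among 11 tested partners and cofactors of LXR, 0 were higher and 0 lower in ADPKD. Of 10 other LXR targets, 3 were higher and 1 lower. *Arl4c*, a small GTPase gene, had 10.7 and 13.8 FPKM in WT, 24.03 and 36.6 in ADPKD, and 45.1 and 47.8 in ADPKD+MMPP, with log2 fold changes of 1.22 (adjusted p = 0.0132) and then 0.63 (adjusted p = 0.0404). *Fads2*, a fatty acid desaturase, rose by 0.73 and then by 2.26 (adjusted p = 0.0233 and 7.86e-05). *Arl4c* and *Fads2* were named for a call in the same direction in both comparisons. The third target that was higher in ADPKD, *Myo5b*, which encodes a myosin motor, was chosen after its values were seen, with 5.84 and 5.996 FPKM in WT, 11.49 and 9.496 FPKM in ADPKD, and 1.93 and 2.53 FPKM in ADPKD+MMPP. It was higher by 0.73 (adjusted p = 0.0206) and then lower by -1.83 (adjusted p = 0.000139). The 1 target that was lower in ADPKD was *Lpl*, also chosen after its values were seen. *Lpl* had 60.2 and 65.5 FPKM in WT, 15.3 and 7.06 FPKM in ADPKD, and 47.7 and 44.2 FPKM in ADPKD+MMPP.

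Of 7 other tested sterol and phospholipid transporters, 0 were higher and 2 lower in ADPKD. *Abca7*, a close relative of *Abca1*, had 21.4 and 18.9 FPKM in WT, 8.89 and 8.14 in ADPKD, and 1.05 and 0.842 in ADPKD+MMPP, and the drug and lipid exporter *Abcb1a* was lower by -1.07 in ADPKD (adjusted p = 0.00521). Among 7 apolipoproteins and plasma lipid enzymes, 1 was higher and 1 lower. *Clu*, a secreted chaperone also known as apolipoprotein J, had 144 and 202 FPKM in WT, 849 and 841 in ADPKD, and 2094 and 2086 in ADPKD+MMPP, so that it rose by 2.30 in ADPKD like *Apoe* (adjusted p = 0.00241) and rose again by 1.31 after treatment (adjusted p = 0.000938). Of the 8 lipoprotein receptors and kin, 4 were higher in ADPKD and 0 lower. *Lrp2*, the megalin gene of proximal tubule and so also a marker of that segment, rose by 1.39 (adjusted p = 0.0182).

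Among 15 genes of lysosomal and intracellular sterol handling, 3 were higher and 1 lower in ADPKD. *Lamp2*, a lysosomal membrane protein gene, rose by 0.60 (adjusted p = 0.00902) and *Nceh1*, a cholesteryl ester hydrolase, by 1.09 (adjusted p = 0.00615), and *Osbpl5*, of the oxysterol-binding protein family, was lower by -0.73 (adjusted p = 0.032). Of 6 genes of oxysterol synthesis and removal, 1 was higher and 2 lower. Of the 7 paralogs of *Lpcat3* among lysophospholipid acyltransferases, 4 were higher and 1 lower. *Lpgat1* rose by 0.95 (adjusted p = 0.00479) and *Mboat1* by 0.59 (adjusted p = 0.0292), and *Lpcat1*, at -0.94 (adjusted p = 0.0125), was the lower one.

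After MMPP treatment, 25 of the 71 pathway genes were higher and 29 lower, which is 76.1% against 70.9% of all tested genes. The higher genes had a median of 74.9% of exon bases in 1 transcript and the lower genes 27.6%. Partners and cofactors of LXR were lower in 7 of 11 and higher in 1. Other LXR targets were higher in 7 of 10 and lower in 3. The remaining lists had 1 higher and 5 lower of 7 transporters, 3 and 1 of 7 apolipoproteins and enzymes, 2 and 3 of 8 receptors, 6 and 7 of 15 lysosomal genes, 3 and 1 of 6 oxysterol genes, and 2 and 2 of 7 acyltransferases.

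**Figure D5:**
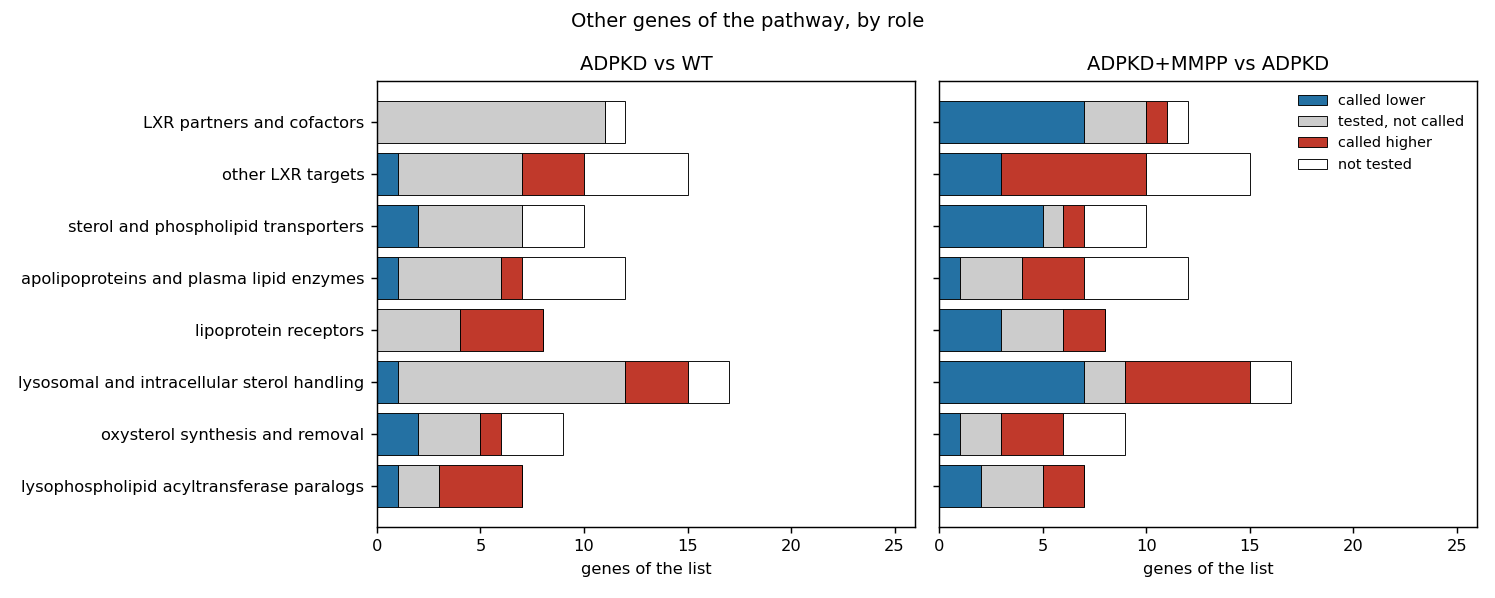
Number of genes (horizontal axis) in each of the 8 pathway lists that were called lower, not called, called higher or not tested, in ADPKD against WT on the left and ADPKD+MMPP against ADPKD on the right. No partner or cofactor of LXR was called on the left, and 7 of 11 were called lower on the right.

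The genes whose pattern over the 6 libraries was most like that of the leading members were taken by Pearson's r of log2(FPKM + 1) among tested protein-coding genes, as a description. For *Abca1* they were *Has1*, *Itgb2*, *Gabra3*, *Ehd1* and *Inhbb*, with r from 0.995 to 0.997. *Has1*, with the highest r, had a mean of 0.582 FPKM in WT, 14.5 FPKM in ADPKD and 6.70 FPKM in ADPKD+MMPP. *Itgb2* encodes the beta chain of leukocyte integrins and had means of 1.26, 8.35 and 4.72 FPKM in the same order. The means were 0.0743, 3.04 and 1.62 FPKM for *Gabra3*, 35.4, 76.5 and 64.8 for *Ehd1*, and 1.40, 24.3 and 10.5 for *Inhbb*. For *Abcg1* they were *Clcf1*, *Ercc6*, *Gfpt2*, *Mpzl2* and *Insyn1*, with r from 0.991 to 0.994. For *Apoe* they were *Zfand2a*, *Esd*, *Polr3d*, *Spin1* and *Ube2j1*, with r of 0.999 each, and *Zfand2a*, a gene of the proteotoxic stress response, had means of 36.05, 112 and 7.45 FPKM in the same order. With 3 groups of 2 libraries, such values are set mostly by the order and spacing of the groups.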

How the data were processed

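FPKM values of 6 polyA RNA libraries from DBA-positive mouse kidney cells were analysed, with 2 libraries in each of the WT, ADPKD and ADPKD+MMPP groups, as given by the labels. The authors aligned reads to mm10 (GRCm38) with HISAT2 2.1.0, counted them with featureCounts 1.6.0, and deposited FPKM per gene symbol. The annotation release and the way FPKM was made are not given in the sources used here. The authors tested their counts with DESeq2.

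Of the 55367 symbols, 53186 matched 1 gene of GENCODE vM21. FPKM times exon length gave whole reads, within 0.05, for 98.3% to 98.9% of values up to 50 reads, from which depth was recovered. The 14862 genes that reached 1 FPKM in 2 or more libraries entered limma 3.58.1 (R 4.3.3) as log2(FPKM + 1), with an intensity trend and 1 fit over the 6 libraries. Genes changed by 1.5 times or more with an unadjusted P under 0.05 were called, as in the study, and adjusted p-values are Benjamini-Hochberg values over all tested genes. The precision is set by 2 libraries per group. The limma fit was tested on simulated data for ADPKD against WT alone, and the median-of-ratios factors on a rescaled library. The other steps were not tested in this way.

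The members and the lists were chosen with earlier results of these data known. Genes named besides the members were, per pathway list, those called in the same direction in ADPKD against WT and in ADPKD+MMPP against ADPKD, or else the largest called change of each comparison, with a mean FPKM of at least 5 in 1 group. A few that met this rule are left out here. The 5 genes most like each of *Abca1*, *Abcg1* and *Apoe*, abundant or defining markers of cell types that moved with a member, and *Pkd1* were also named. *Csf1r*, *Mrc1*, *Kap*, *Gpx3*, *Hnf4a*, *Myo5b* and *Lpl* were chosen after their values were seen. Alternatives covered the pseudocount, filter, scaling, trend, groups in the fit, thresholds, a replicate block, centring within bins of transcript share, and leaving out each library. A fit on the recovered reads with voom weights in limma was chosen after seeing the data.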

Additional observations from a re-analysis of the deposited data

How the results depend on the processing

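With 2 libraries per group, the number of members called stayed within 1.5 times its reported value under every alternative, from 4 to 7 in ADPKD against WT, from 4 to 9 in ADPKD+MMPP against ADPKD and from 6 to 8 in ADPKD+MMPP against WT, and these ends include the fits that leave out 1 library. An arm left with 1 library was assumed to vary like the other groups. The number called does not show which members were called. With centring by transcript share, *Pltp*, *Nr1h2* and *Lpcat3* no longer passed in ADPKD+MMPP against ADPKD. *Npc2* then passed as lower, and *Nr1h3* and *Npc1* passed as higher. Of the values of members' log2 fold changes under alternatives, 493 kept their direction and their side of the threshold, 44 no longer passed, 19 newly passed and 14 changed sign. The cause of these changes was not tested. Some alternatives could not change a sign. The filter, the trend, the groups in the fit, the replicate block and the thresholds leave each log2 fold change as it was. So does leaving out a library of a group outside the comparison. Centring by transcript share turned *Nr1h3* to 1.45 against ADPKD and 1.25 against WT, *Npc1* to 0.71 and *Mylip* to 0.39 against ADPKD, and *Lpcat3* to 0.33, *Abcg1* to -0.22 and *Npc2* to -0.69 against WT. Quantile normalization turned *Nr1h3* to 0.16 and *Npc1* to 0.073 against ADPKD and *Npc2* to -0.0069 against WT. A common FPKM sum turned *Npc1* and *Npc2* to -0.25 each against WT, and median-of-ratios factors turned *Npc1* to -0.0032. Leaving out a library moved *Nr1h3* in ADPKD against WT from -0.65 to 0.20. Scaling moved the median of all genes in ADPKD+MMPP against ADPKD from -0.36 to 0.10 (quantile) and -0.55 (common sum), and of called genes in ADPKD+MMPP against WT 40.8% were higher, against 52.9% with quantile normalization and 57.3% with centring. Centring gave 58.1% in ADPKD+MMPP against ADPKD, and 2 members higher and 4 lower. The labels give every group the same replicate numbers. Deviations of same-numbered libraries correlated with r of 0.129 for WT and ADPKD, -0.00796 for WT and ADPKD+MMPP and 0.0137 for ADPKD and ADPKD+MMPP, so the numbers were not taken to pair the samples. With the replicate block 6 members were called in each comparison, and the one change was *Nr1h3* in ADPKD+MMPP against WT, which no longer passed. Low read numbers limit *Pltp* and *Nr1h3* most, at 30 to 58 reads in ADPKD+MMPP.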

Other observations

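The recovered read numbers of the members in ADPKD+MMPP were even in both libraries for every member but *Npc1*, which had 579 and 537 reads. *Apoe* had 294 and 276 reads there, against 34900 and 68244 in ADPKD and 7362 and 7858 in WT, and *Abca1* had 2398 and 2424 reads against 8477 and 15812 in ADPKD.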
